A study of Mus musculus with 9 samples.

Results

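The 9 genes described here are the p160 (SRC) coactivators Ncoa1, Ncoa2 and Ncoa3, the coactivators Ncoa6 and Ncoa7, the Mediator subunit Med1, the corepressors Ncor1 and Nrip1, and Greb1, an estrogen-induced gene whose product is a cofactor of ERα in breast cancer cells. They were taken by symbol from the 46078 genes of the count table, with 1 row for each symbol, and all 9 passed the filter on low counts. Ligand-bound nuclear receptors such as the estrogen receptors change transcription through coregulators. Coactivators bind the receptor and bring in histone acetyltransferases or the Mediator complex, which contacts RNA polymerase II, whereas corepressors bring in histone deacetylases. In the ovary, coregulators serve the receptors for estrogen, progesterone and androgen and the NR5A receptors, SF-1 and LRH-1.

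The RNA came from whole ovaries, 5 from WT and 4 from ERβKO mice of C57BL/6J background, with 1 library for each mouse. The ERβKO mice lack exon 3 of Esr2 in all tissues, since the deletion was made with a Rosa26-Cre deleter line, and the WT controls carry no Cre. Over all experiments the mice were 4 to 20 weeks old, and they were not synchronized in their cycle. Each sample is labelled untreated, although the protocol text attached to all samples describes diets and injections of an ERβ ligand, and the diet of these mice is not given in the sources used here. Between 12353740 and 18717510 fragments were counted per library. Esr2 was listed at 12.4 to 23.9 FPKM (fragment counts scaled by gene length and library depth) in WT and 10.5 to 23.7 FPKM in ERβKO ovaries, so its level over the whole gene, with the remaining exons counted, does not check the genotype labels. Granulosa, luteal, theca, stromal and oocyte markers were all detected, and the theca marker Insl3 was listed at 0 in 4 libraries and stayed below the filter.

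The Greb1 and Ncoa7 levels of the genotypes did not overlap, and the sequences upstream of their annotated starts are shown for that reason. Greb1 lies on chromosome 12 of GRCm38 (ENSMUSG00000036523, minus strand, 16670615 to 16800886). Ncoa7 lies on chromosome 10 (ENSMUSG00000039697, minus strand, 30645584 to 30803107). RefSeq (GRCm38.p6) gives both genes an outer start and a start inside the gene. The outer start of Greb1 falls at the edge of the span given here, while that of Ncoa7 lies beyond it. The 250 bases before each start are printed 5′ to 3′, with the estrogen response element (ERE) half-site GGTCA, or TGACC on the other strand, in capitals.
Greb1, outer start, chr12:16800887-16801136: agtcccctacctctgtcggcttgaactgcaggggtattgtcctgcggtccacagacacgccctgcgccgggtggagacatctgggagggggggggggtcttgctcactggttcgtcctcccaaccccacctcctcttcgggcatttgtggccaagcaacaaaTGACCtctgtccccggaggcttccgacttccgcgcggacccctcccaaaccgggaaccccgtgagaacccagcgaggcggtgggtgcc
Greb1, inner start, chr12:16757240-16757489: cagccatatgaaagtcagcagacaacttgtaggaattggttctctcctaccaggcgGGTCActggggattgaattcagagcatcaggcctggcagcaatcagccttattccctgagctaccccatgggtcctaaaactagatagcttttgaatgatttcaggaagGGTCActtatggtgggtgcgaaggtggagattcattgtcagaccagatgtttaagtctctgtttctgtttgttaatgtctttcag
Ncoa7, outer start, chr10:30803327-30803576: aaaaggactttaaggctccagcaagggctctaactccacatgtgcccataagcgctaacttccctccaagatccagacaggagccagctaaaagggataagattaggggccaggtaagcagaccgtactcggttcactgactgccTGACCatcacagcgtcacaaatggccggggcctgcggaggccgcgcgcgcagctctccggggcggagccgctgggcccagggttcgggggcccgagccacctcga
Ncoa7, inner start, chr10:30655868-30656117: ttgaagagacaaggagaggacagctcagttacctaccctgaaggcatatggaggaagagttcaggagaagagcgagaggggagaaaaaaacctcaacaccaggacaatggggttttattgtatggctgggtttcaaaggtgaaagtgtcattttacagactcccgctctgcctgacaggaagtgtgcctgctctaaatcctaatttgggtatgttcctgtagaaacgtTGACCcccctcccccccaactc

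Counted from the start, the half-site lay at -88 for the outer start of Greb1 and at -194 and -85 for the inner one. In Ncoa7 it lay at -105 for the outer and at -22 for the inner start. Promoter sequence was matched for 7 of the 9 genes, in 11 windows. The half-site was found in windows of 3 genes, Greb1, Ncoa7 and Nrip1, where it lay at -77. It was found in 5 of the 11 windows, against 35.2% of the 32851 windows of all genes. A full ERE (GGTCA, 3 bases of any kind, TGACC) was in none of the 11 windows and in 0.0639% of all windows. The NR5A motif AAGGTCA (both strands), which contains the half-site, was in none of the 11 and in 4.08% of all. A match is a description of these letters alone, and binding was not measured in these files. The study mapped ERβ binding to chromatin of WT ovaries in a separate experiment. It reported sites in an intron of Greb1 and found only a minority of all its sites in promoters. The windows here were not compared with those sites.

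Across the 9 ovaries, Greb1 had the highest mean level of the group at 96.4 FPKM, above 97.4% of the genes tested. Ncor1, the corepressor that carries HDAC3 to unliganded receptors, followed at 41.8 FPKM and was below Greb1 in 8 of the 9 ovaries. Nrip1 (19.0 FPKM) and Ncoa6 (17.4 FPKM) came next and were not separated, since Nrip1 was the higher in 5 of 9 ovaries. Ncoa7, Ncoa2 and Med1 had means of 11.4, 11.0 and 10.7 FPKM. Ncoa7 was above both others in all 5 WT ovaries and below both in all 4 ERβKO ovaries, while Ncoa2 was above Med1 in 4 of 9 ovaries. Ncoa3 at 8.05 FPKM was below Med1 in all 9 ovaries and above Ncoa1, at 6.46 FPKM, in all 9.

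**Figure D1:**
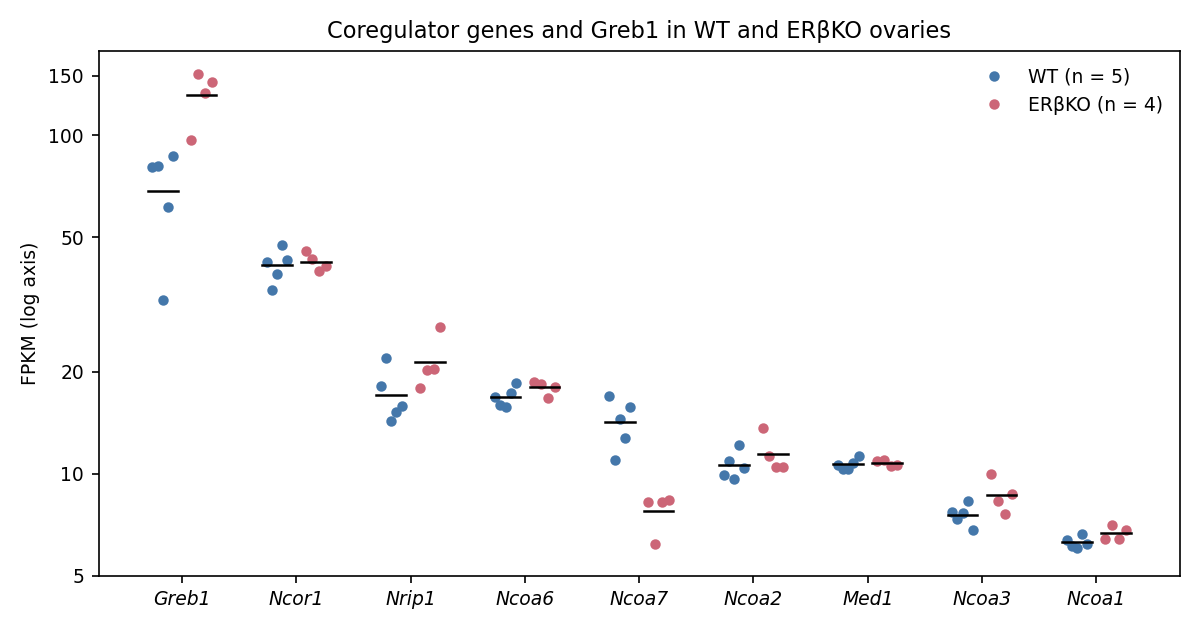
Level of each gene in FPKM (log axis) in 5 WT and 4 ERβKO ovaries, with points for single ovaries and bars for group means, ordered by the mean over all ovaries. The genotypes do not overlap for Greb1, which was higher in ERβKO ovaries, nor for Ncoa7, which was lower, and they overlap for the other 7 genes.

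To ask whether loss of ERβ was accompanied by a change in coregulator transcripts, edgeR's quasi-likelihood test was run between genotypes over 16722 genes. A call needed the following together: a log2 fold change beyond 0.4 in either direction, a Benjamini-Hochberg adjusted p under 0.05, and 1 genotype or both averaging above 1 FPKM. Of the 9 genes, 1 was called, Ncoa7, which was lower in ERβKO ovaries. Over all genes tested, 1.72% were called, 0.915% as higher and 0.801% as lower in ERβKO ovaries. With DESeq2 on the same counts and thresholds 2 of the 9 were called, Ncoa7 and Greb1, against 4.80% of all genes. At an unadjusted p under 0.05 in edgeR 3 of the 9 differed (Ncoa3, Ncoa7 and Greb1), against 19.8% of all genes. The log2 CPM (counts scaled to library depth) of the genotypes did not overlap for 2 of the 9, against 7.96% of all genes. The median log2 fold change, ERβKO over WT, was 0.054 over the 9 genes and -0.00089 over all genes tested.

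**Figure D2:**
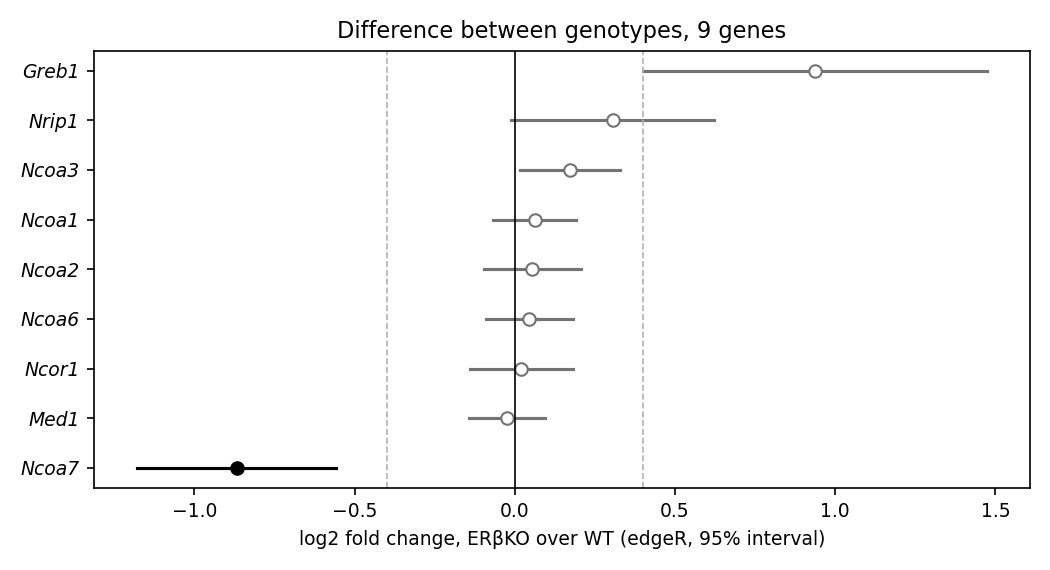
Log2 fold change of each gene, ERβKO over WT, from edgeR's quasi-likelihood fit with its 95% interval. The filled point is the called gene, Ncoa7, and the dashed lines mark the threshold of 0.4. Greb1 lies to the right of 0.4 with its whole interval, and the intervals of Ncoa1, Ncoa2, Ncoa3, Ncoa6, Med1 and Ncor1 lie between the dashed lines.

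Greb1 was measured at 80.8, 81.2, 32.6, 61.2 and 86.8 FPKM in WT replicates 1 to 5. In ERβKO replicates 1 to 4 it was measured at 97.0, 151, 133 and 143 FPKM. WT replicate 3 was the lowest of all ovaries, and ERβKO replicate 1 was closest to the WT ovaries. The means were 68.5 ± 22.3 FPKM over the 5 WT ovaries and 131 ± 24.0 FPKM over the 4 ERβKO ovaries (± SD), and the fitted fold was 1.92. The log2 fold change was 0.94 (standard error, SE, 0.24, 95% interval 0.40 to 1.47). Greb1 was not called in the edgeR fit over all genes (adjusted p = 0.0741), and was called with DESeq2 (adjusted p = 0.00487). The study itself used DESeq2 and reported Greb1 among the genes upregulated in ERβKO ovaries. An exact permutation test on log2 CPM, two-sided, gave p = 0.0159, which is the smallest value that 5 against 4 ovaries can reach and means that the genotypes did not overlap. Without WT replicate 3 the log2 fold change was smaller, at 0.77, but so was its SE, at 0.16, and the edgeR adjusted p was 0.0389. Without WT replicate 2 it was 0.0492, and with any other ovary left out it lay between 0.0649 and 0.193.

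Greb1 reads are plentiful, with 5222 to 27968 fragments per library, so counting error is small beside the spread between ovaries. The coefficient of variation among WT ovaries was 32.5%, higher than in 88.4% of the 13941 genes with a mean over 1 FPKM. The annotation places a gene on the opposite strand, Gm48140, over 7.68% of the exon length of Greb1, and the sources used here do not state whether counting used the strand.

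Ncoa7 encodes a coactivator of estrogen receptors with a TLDc domain, the domain shared with oxidation resistance protein OXR1. It was measured at 17.01, 11.0, 14.5, 12.8 and 15.8 FPKM in WT replicates 1 to 5. In ERβKO replicates 1 to 4 it was measured at 8.27, 6.22, 8.25 and 8.37 FPKM. All ERβKO ovaries lay below all WT ovaries. WT replicate 2 was the lowest WT ovary, and 3 of the ERβKO ovaries were nearly level with each other. Ncoa7 fell from 14.2 ± 2.39 FPKM in WT to 7.78 ± 1.04 FPKM in ERβKO ovaries (± SD over 5 and 4 ovaries), and the fitted ratio was 0.548. The log2 fold change was -0.87 (SE 0.14, 95% interval -1.18 to -0.56), and the adjusted p was 0.0164 from edgeR and 1.76e-06 from DESeq2. The exact permutation test on log2 CPM gave p = 0.0159 (two-sided). Without ERβKO replicate 2 the log2 fold change was -0.77 and the edgeR adjusted p rose to 0.0528, and with any other ovary left out it stayed between 0.00652 and 0.0492. With only the libraries whose sample number in the labels is below 200, which leaves out WT replicates 4 and 5, the log2 fold change was -0.85 and the adjusted p from edgeR 0.0778. The meaning of these numbers is not given in the sources used here. The annotation has 0.738% of the exon length of Ncoa7 shared with Hint3 on the same strand.

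**Figure D3:**
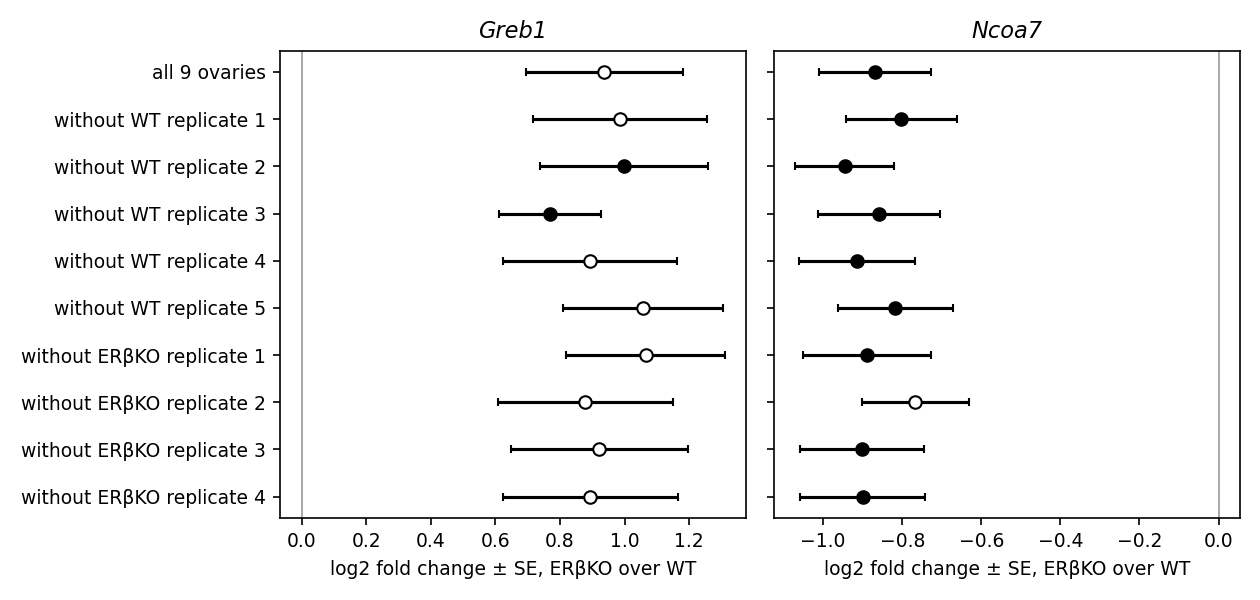
Log2 fold change ± SE of Greb1 (left) and Ncoa7 (right), ERβKO over WT, with all 9 ovaries and after removal of single ovaries, named on the axis (edgeR). Filled points have an adjusted p under 0.05. Greb1 passes without WT replicate 2 or WT replicate 3, at 1.00 and 0.77, and Ncoa7 passes in each fit but the one without ERβKO replicate 2, at -0.77.

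Greb1 and Ncoa7 differed in opposite directions, by like amounts on the log2 scale. Among the genes over 1 FPKM, 2.54% had a larger absolute log2 fold change than Greb1 and 2.94% a larger one than Ncoa7, while the median was 0.13. Whole ovaries hold many cell types, and fewer cells of a type cannot be told apart from less RNA per cell. The summed level of 10 granulosa markers ran from 750 to 963 FPKM in WT and from 997 to 1377 FPKM in ERβKO ovaries. Here 9 of 10 had a positive log2 fold change, and Grem1 was negative, at -0.82. In edgeR's test 5 had an unadjusted p under 0.05 and 1, the estradiol-forming enzyme gene Hsd17b1, was called. With DESeq2 5 were called. Inha and Gja1 made up most of the granulosa sum. Inha had group means of 352 (WT) and 509 FPKM (ERβKO), and Gja1 of 339 and 509 FPKM. The sum of 6 theca markers ran from 465 to 728 FPKM in WT and from 836 to 1718 FPKM in ERβKO ovaries, with 4 of 5 tested positive and 1 called (Aldh1a1, higher, by both tools). Most of this sum came from Aldh1a1, which averaged 521 FPKM over WT and 1092 FPKM over ERβKO ovaries, and from Cyp17a1. Cyp17a1 averaged 48.4 ± 48.8 FPKM over WT and 246 ± 217 FPKM over ERβKO ovaries (± SD). The FPKM of the genotypes overlapped for Cyp17a1, and its adjusted p was 0.205 from edgeR and 0.163 from DESeq2. The log2 fold changes of Ptch1, Gli1 and Hhip were 0.03, 0.12 and -0.06, and the median of the 5 was 0.12. For 10 luteal markers it ran from 3133 to 6740 FPKM in WT and from 2588 to 4076 FPKM in ERβKO ovaries, with 9 of 10 negative and none called in edgeR's test (5 at an unadjusted p under 0.05, and 3 called by DESeq2). Hsd3b1 and Cyp11a1 made up most of the luteal sum. Hsd3b1 had group means of 2533 (WT) and 1684 FPKM (ERβKO), and Cyp11a1 of 1353 and 753 FPKM. Akr1c18 was the positive luteal marker, with a log2 fold change of 1.23 (SE 1.43). The 6 adipocyte markers had sums of 127 to 239 FPKM across WT ovaries and of 149 to 962 FPKM across ERβKO ovaries, with the highest value in ERβKO replicate 1. All 6 had an unadjusted p under 0.05, none was called in edgeR's test, and 3 were called with DESeq2. Over all genes tested, 19.8% had an unadjusted p under 0.05 in edgeR's test, 1.72% were called there and 4.80% were called with DESeq2. The median log2 fold change was -0.002 for stromal, -0.10 for endothelial and 0.06 for macrophage markers. It was 0.14 for oviduct and surface epithelium markers and 0.42 for oocyte markers. None of the genes of these lists was called in edgeR's test or with DESeq2. The part of the marker shifts in the Greb1 and Ncoa7 results was not tested.

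The p160 coactivators bind receptors through LXXLL motifs and recruit the acetyltransferases CBP and p300. Together Ncoa1, Ncoa2 and Ncoa3 had sums of 23.3 to 27.1 FPKM across WT ovaries and of 24.5 to 30.1 FPKM across ERβKO ovaries. Ncoa2 gave the largest share of this sum in every ovary, between 40.2% and 45.4%. Ncoa3 gave 29.1% to 33.5% and Ncoa1 21.4% to 26.6%, so the composition was alike across ovaries, with the lowest Ncoa1 share in ERβKO replicate 1.

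Ncoa1 (SRC-1) averaged 6.27 ± 0.246 FPKM over the 5 WT ovaries and 6.69 ± 0.303 FPKM over the 4 ERβKO ovaries (± SD). Its log2 fold change was 0.06 (95% interval -0.07 to 0.19). Ncoa2 (GRIP1) averaged 10.6 ± 1.00 FPKM over the 5 WT ovaries and 11.5 ± 1.52 FPKM over the 4 ERβKO ovaries (± SD). Its interval ran from -0.10 to 0.21 around 0.05, and its highest ovary was ERβKO replicate 1, at 13.7 FPKM. In log2 CPM that ovary was nearly level with WT replicate 4 (6.82 and 6.81), which was at 12.2 FPKM. Neither gene was called, with adjusted p-values of 0.598 for Ncoa1 and 0.705 for Ncoa2 in edgeR's quasi-likelihood test.

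Ncoa3 (AIB1, amplified in some breast cancers) was at 7.69, 7.35, 7.67, 8.32 and 6.82 FPKM in WT replicates 1 to 5. In ERβKO replicates 1 to 4 it was at 10.0, 8.28, 7.62 and 8.69 FPKM. The groups overlapped, with ERβKO replicates 2 and 3 inside the WT range. Its log2 fold change was 0.17 (SE 0.070, 95% interval 0.018 to 0.33), with an unadjusted p of 0.0323 and an adjusted p of 0.211 in the edgeR fit over all genes. The permutation test on log2 CPM gave p = 0.0635 (two-sided, exact).

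Ncoa6, a scaffold of complexes that methylate histone H3, averaged 16.9 ± 1.11 FPKM over the 5 WT ovaries and 18.0 ± 0.853 FPKM over the 4 ERβKO ovaries (± SD). Its log2 fold change was 0.05 (95% interval -0.09 to 0.18). Med1, the Mediator subunit that liganded receptors contact, was the steadiest of the group, with means of 10.7 ± 0.378 FPKM over the 5 WT ovaries and 10.8 ± 0.228 FPKM over the 4 ERβKO ovaries (± SD). Among WT ovaries its coefficient of variation was 3.54%, against a median of 12.6% over the genes above 1 FPKM, of which 2.98% had a lower one. The log2 fold change of Med1 was -0.02 in edgeR (95% interval -0.14 to 0.09) and took the opposite sign on the FPKM scale with limma (0.013), with both values near 0. The adjusted p-values were 0.725 for Ncoa6 and 0.837 for Med1 in edgeR's quasi-likelihood test.

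Of the corepressors, Ncor1 averaged 41.3 ± 4.71 FPKM over the 5 WT ovaries and 42.3 ± 2.46 FPKM over the 4 ERβKO ovaries (± SD). Its log2 fold change was 0.02 (95% interval -0.14 to 0.18, edgeR adjusted p = 0.907), and it turned to -0.025 without WT replicate 2. Nrip1 (RIP140), an estrogen-induced corepressor needed for ovulation in mice, was at 18.1, 21.9, 14.3, 15.3 and 15.8 FPKM in WT replicates 1 to 5. In ERβKO replicates 1 to 4 it was at 17.9, 20.2, 20.4 and 27.1 FPKM. The groups overlapped, with WT replicate 2 above all ERβKO ovaries but replicate 4. The log2 fold change of Nrip1 was 0.31 (SE 0.14, 95% interval -0.01 to 0.62), and the adjusted p was 0.270 from edgeR and 0.261 from DESeq2. Without ERβKO replicate 4 the log2 fold change was 0.17.

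Apart from Greb1 and Ncoa7, the 95% interval of the log2 fold change lay within ± 0.4 for 6 of 7 genes, and that of Nrip1 reached 0.62. For these 6 the lowest bound was -0.14 and the highest 0.33. On GRCm38 Ncoa1 lies on chromosome 12 (4247363 to 4477182), Ncoa2 on chromosome 1 (13139105 to 13374083) and Ncoa3 and Ncoa6 on chromosome 2 (165992636 to 166073242 and 155390656 to 155473894). Med1 and Ncor1 lie on chromosome 11 (98152154 to 98193293 and 62316426 to 62458541) and Nrip1 on chromosome 16 (76287400 to 76373827). On the opposite strand, the annotation places 4921501I09Rik over 0.793% of the exon length of Ncoa1 and Sulf2 over 1.95% of that of Ncoa3. Ttc19 and Pigl, also on the opposite strand, together cover 0.648% of that of Ncor1. The 95% intervals limit the size of a difference and do not show that the levels were equal.

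The wider coregulator families were read from lists of 34 coactivators, 32 Mediator subunits and kinases and 32 corepressors, none of them among the 9 genes. All 98 were tested and none was called in edgeR's quasi-likelihood test, against 1.72% of all genes, and 1 was called with DESeq2, against 4.80%. An unadjusted p under 0.05 was found for 17 of the 98, against 19.8% of all genes, so that share was near the background. The median log2 fold change was 0.0044 for the coactivators, with 17 positive and 17 negative values. It was 0.036 for the Mediator genes, with 21 positive and 11 negative, and 0.015 for the corepressors, with 17 positive and 15 negative. Single values ran from -0.80 to 0.40, and the genes at both ends averaged below 1 FPKM in both genotypes. The log2 CPM of the genotypes did not overlap for 2 coactivators, 1 Mediator gene and 7 corepressors, 10 of the 98, against the 7.96% of all genes.

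**Figure D4:**
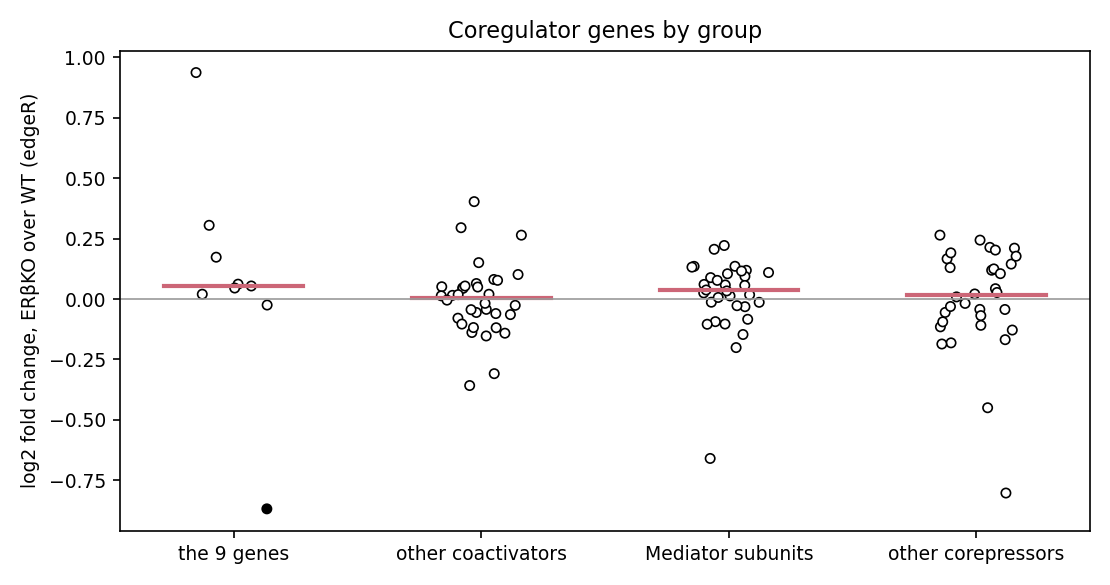
Log2 fold change, ERβKO over WT (edgeR), of the 9 genes and of 34 other coactivators, 32 Mediator genes and 32 other corepressors, with a bar at each median. The one filled point is Ncoa7, the only gene called, and Greb1 is the highest point of all 4 groups at 0.94.

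Of 7 receptor genes, none was called by either tool and 1 (Nr5a1) had an unadjusted edgeR p under 0.05, against 19.8% of all genes. Esr1, the ERα gene, averaged 19.9 ± 6.87 FPKM over the 5 WT ovaries and 24.2 ± 1.09 FPKM over the 4 ERβKO ovaries (± SD), and edgeR gave an adjusted p of 0.512.

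The genes most like Greb1 were sought by the Pearson correlation of log2 CPM over the 9 ovaries after subtraction of each genotype's mean, among 13941 genes over 1 FPKM. They were Sltm (r = 0.988), Bloc1s1 (0.982), Ccdc97 (0.957), Ext1 (0.956) and A530017D24Rik (0.954). Between genotypes their log2 fold changes lay between -0.34 (Ext1) and 0.42 (Bloc1s1), and none of the 5 was called. For Ncoa7 they were Fam83g (r = 0.997), Tpst2 (0.987), Mrps12 (0.975), St6galnac6 (0.975) and Sertad4 (0.971). Of these 5, 1 was called between genotypes, Tpst2, a tyrosylprotein sulfotransferase gene, which averaged 36.5 FPKM over WT and 13.9 FPKM over ERβKO ovaries. Its log2 fold change was -1.44 (SE 0.17), and edgeR gave an adjusted p of 0.00537. The other log2 fold changes were -0.82 for Fam83g (adjusted p = 0.0714, edgeR), -0.51 for St6galnac6 (0.0906), 0.06 for Mrps12 (0.815) and 0.05 for Sertad4 (0.844). These values of r are the highest of 13941 over 9 ovaries that differ in depth and tissue makeup, and are given as a description.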

How the data were processed

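RNA-seq of whole ovaries gave 9 libraries, 5 WT and 4 ERβKO. The authors trimmed the reads with Trim Galore, mapped them to GRCm38 with STAR and deposited raw counts per gene from FeatureCounts, without normalization. The FPKM and TPM values and the per-base coverage signal were deposited by the authors from StringTie, and TPM and coverage were not used here. Counts were fitted in R 4.3.3 with edgeR 4.0.16 (filterByExpr, TMM, quasi-likelihood test, genotype as factor), and alternatives used DESeq2 1.42.0 and limma 3.58.1. The standard error was taken from the log2 fold change and its F statistic. Members and gene lists were chosen with earlier results of these data known. By rule the text names all 9 members, other list genes if called by edgeR, the receptors in at most 2 sentences, genes that overlap a member, and the 5 genes most alike to Greb1 and to Ncoa7. Safb, Phb2, Med10 and single markers fall outside this rule and were named after their values were seen. Alternatives were other normalizations, filters and tools, a replicate block, each library left out and the libraries numbered below 200. The scripts were tested on simulated counts. Depth was 12353740 to 18717510 counts per library. Promoter windows came from RefSeq (GRCm38.p6), positions from the deposited files and exon overlap from GENCODE M21. Protein sequences were not used here. One further gene of the lists is not reported here.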

Additional observations from a re-analysis of the deposited data

Results flagged for a closer look

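Ncoa7 in ERβKO replicate 2, at 6.22 FPKM, lay apart from the other 3 ERβKO ovaries, which were between 8.25 and 8.37 FPKM. Its gap to the nearest of them was close to the whole range of the group (Dixon's ratio 0.944, above the 95% critical value for 4 samples). This was 1 of 18 groups (9 genes in 2 genotypes) looked at, and chance flags about 1 in 20 such groups. The cause was not tested. Without this ovary Ncoa7 was still lower in ERβKO ovaries, at a log2 difference of -0.77 (SE 0.14, edgeR adjusted p = 0.0528).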

How the results depend on the processing

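The log2 fold changes of Ncoa1, Ncoa2, Ncoa3, Ncoa6, Ncoa7, Nrip1 and Greb1 kept their sign in the 18 alternatives each. Greb1 ranged from 0.77 to 1.11 (adjusted p 0.00487 to 0.193) and passed the threshold in 3 of 18, and Ncoa7 from -0.95 to -0.77 (1.76e-06 to 0.0778), missing it in 2 of 18. Ncoa7 missed it with the libraries numbered below 200 and without ERβKO replicate 2. Med1 turned to 0.0075 with the libraries numbered below 200, 0.013 with limma on log2(FPKM + 1) and 0.014 on log2(FPKM + 0.1), and Ncor1 to -0.025 without WT replicate 2, against up to 0.054 with another ovary left out, each near 0.

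Of the 9 genes, 2 were called with DESeq2 and 0 with the libraries numbered below 200 (1 in the reported fit), and 0 (without ERβKO replicate 2) to 2 (without WT replicate 2 or 3) with an ovary left out. Of the 98 other coregulators, 1 was called with DESeq2 (Phb2), and 0 to 2 with an ovary left out, the 2 (Med10 and Phb2) without WT replicate 2. Over all genes 287 were called, against 802 with DESeq2, 51 with the libraries numbered below 200 and 60 (without ERβKO replicate 2) to 919 (without WT replicate 2) with an ovary left out. It was 118, 161, 110, 152 and 80 without WT replicates 1, 4 and 5 and ERβKO replicates 3 and 4. The cause was not tested.

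With the replicate number as a block 155 genes were called and 1 of the 9, Ncoa7. Same-numbered ovaries correlated in their deviations at 0.108, 0.166, -0.073 and -0.033, and differently numbered ones between -0.312 and 0.238. These values cannot show whether same-numbered ovaries share more than a number, and the sources used here do not state it. With the block Greb1 was at 1.11 (adjusted p = 0.124, edgeR) and Ncoa7 at -0.81 (0.0264).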

Other observations

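Several corepressor genes outside the 9 had log2 CPM that did not overlap between genotypes (7 of 32, against 7.96% of all genes), and 2 of them are described. They were picked here after their values were seen, and none was called in the edgeR fit over all genes (10 of the 32 corepressors had an unadjusted p under 0.05, against 19.8% of all genes, and 1, Phb2, was called with DESeq2, against 4.80%). Safb, whose product binds scaffold attachment regions and represses ERα, averaged 36.9 ± 1.69 FPKM over the 5 WT ovaries and 43.4 ± 3.17 FPKM over the 4 ERβKO ovaries (± SD). Its log2 fold change was 0.21 (SE 0.055), below the threshold of 0.4, and its adjusted p was 0.0714 from edgeR. Phb2, a prohibitin that also represses ER activity, went the other way, from 68.3 ± 12.2 FPKM in WT to 51.3 ± 2.69 FPKM in ERβKO ovaries (± SD over 5 and 4 ovaries), a log2 fold change of -0.45 (SE 0.13). In FPKM the genotypes overlapped for Safb (up to 38.99 in WT, from 38.7 in ERβKO), and not for Phb2. The adjusted p of Phb2 was 0.10005 in edgeR's test.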
